A study of Mus musculus with 6 samples.

Results

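The genes described here are 56 genes of mitosis and chromosome segregation, taken by name from a deposited table of 35275 mouse genes: mitotic kinases, cyclins and other regulators of Cdk1, anaphase and checkpoint genes, kinetochore genes, kinesins, spindle, condensin and cytokinesis genes, and the transcription factor Foxm1. RNA sequencing measured them in 3T3 cells, an established line of mouse embryo fibroblasts. Control cells carried a control construct and NNMT cells an overexpression construct for nicotinamide N-methyltransferase, the enzyme that methylates nicotinamide at the expense of S-adenosylmethionine, with 3 libraries in each group. Both groups grew for 48 h in medium lacking methionine to which 10 µM methionine and 10% dialyzed serum had been added. The comparison asks how the RNA of mitotic genes differed between NNMT and control cells in this medium. The labels do not say which vector, promoter, clone or 3T3 subline was used, or whether the 3 libraries of a group came from separate cultures. P-values thus measure the spread between these libraries, which may be technical.

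At mitosis a dividing cell condenses its chromosomes, attaches each sister pair to spindle microtubules through the kinetochores, and separates the sisters once the spindle checkpoint is satisfied. Cyclin B with Cdk1 drives entry. The anaphase-promoting complex, with Cdc20, ends mitosis by marking securin and cyclin B for destruction, and cytokinesis then parts the daughter cells. In cycling fibroblasts the RNA of many of these genes is low in G1 and reaches its peak in G2 and mitosis, when the DREAM complex has left their promoters and the MuvB, B-Myb and Foxm1 activators are bound, so that their level in bulk RNA is often used as a readout of cycling. Well-studied promoters of this class carry a cell cycle homology region, called CHR here, near the start of transcription and CCAAT boxes bound by NF-Y upstream of it.

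The promoters of 6 of the genes are shown because they carry both kinds of element beside some of the smallest adjusted p-values among the 56 genes. Each stretch runs 5′ to 3′ in the direction of the gene, from 170 bases before the RefSeq start of transcription through the first 30 transcribed bases, on build GRCm38.p6. Capitals mark CHR letters (either TTTGAA, its variant TTTAAA, or lastly TTCGAA, read on either strand) and CCAAT on either strand, which reads ATTGG when it lies on the other strand. The stretches lie at chrX:100625895-100626094 (plus strand) for Kif4, chr4:118437314-118437513 (minus strand) for Cdc20, chr2:131186778-131186977 (plus strand) for Cdc25b, chr4:124936888-124937087 (minus strand) for Cdca8, chr1:139454603-139454802 (plus strand) for Aspm and chr7:80294281-80294480 (plus strand) for Prc1.
Kif4: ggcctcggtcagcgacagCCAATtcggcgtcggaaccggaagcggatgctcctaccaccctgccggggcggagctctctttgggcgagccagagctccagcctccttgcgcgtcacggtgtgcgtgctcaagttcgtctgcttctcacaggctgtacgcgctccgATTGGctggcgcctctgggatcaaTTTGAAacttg
Cdc20: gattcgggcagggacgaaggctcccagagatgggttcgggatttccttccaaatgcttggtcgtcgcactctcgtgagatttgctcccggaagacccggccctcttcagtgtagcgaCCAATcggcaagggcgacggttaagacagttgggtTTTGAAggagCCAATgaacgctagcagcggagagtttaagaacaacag
Cdc25b: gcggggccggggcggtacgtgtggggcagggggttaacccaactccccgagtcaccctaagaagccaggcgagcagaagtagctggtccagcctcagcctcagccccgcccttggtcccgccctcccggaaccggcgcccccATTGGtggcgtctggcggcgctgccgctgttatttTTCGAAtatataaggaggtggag
Cdca8: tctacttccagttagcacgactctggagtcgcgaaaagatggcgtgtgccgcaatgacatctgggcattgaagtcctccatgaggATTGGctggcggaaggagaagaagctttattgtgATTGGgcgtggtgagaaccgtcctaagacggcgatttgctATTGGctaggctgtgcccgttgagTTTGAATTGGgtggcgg
Aspm: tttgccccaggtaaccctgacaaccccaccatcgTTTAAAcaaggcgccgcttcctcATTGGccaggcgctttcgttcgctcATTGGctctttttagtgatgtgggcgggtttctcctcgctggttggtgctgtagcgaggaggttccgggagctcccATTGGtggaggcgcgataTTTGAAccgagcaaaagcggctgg
Prc1: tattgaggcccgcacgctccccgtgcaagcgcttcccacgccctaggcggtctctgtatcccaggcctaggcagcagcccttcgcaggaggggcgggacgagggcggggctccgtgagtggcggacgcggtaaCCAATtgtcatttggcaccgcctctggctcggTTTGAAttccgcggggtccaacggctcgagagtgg
In Kif4, Cdc20, Cdca8, Aspm and Prc1 the letters TTTGAA stand close to the start, whereas Cdc25b has TTCGAA there. In Cdca8 the TTTGAA and an ATTGG share letters. A match is a run of letters and not a measured binding site, and no binding was measured in this study.

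Over the RefSeq windows from 250 bases before to 50 bases after the start, 47 of the 56 genes had an entry, in 50 windows. CHR letters stood in 86.0% of these windows, against 43.2% for other mitosis genes, 20.8% for all genes tested and 28.8% for all promoters in the table. CCAAT stood in 76.0%, against 53.6%, 38.4% and 37.4% in the same order. Both together stood in 74.0% of the windows, against 25.6%, 8.41% and 11.3%. The 67 CHR matches lay in 40 genes with a median position of 18 bases before the start, and in 36 of these genes a match lay within 50 bases of the start on either side. The 82 CCAAT matches lay further upstream, with a median of 65 bases before the start. Ect2, Prc1 and Bub3 had overlapping windows, and a site in more than 1 window was counted in each. E2F-like letters (TTTGGCG or TTTCCCG, either strand) were in 14.0% of the windows, against 16.8%, 8.38% and 4.84% in the same order, and the forkhead letters TGTTTAC in 4.0%, against 3.2%, 2.44% and 3.65%. The 40 genes with CHR letters had a median log2 fold change of -0.56 and the 7 without them -0.51, and with and without CCAAT the medians were -0.56 and -0.58. For E2F-like letters the median was -0.72 in the 7 genes with them and -0.54 in the 40 without. The shares and medians are descriptions of the windows and were not tested.

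**Figure D1:**
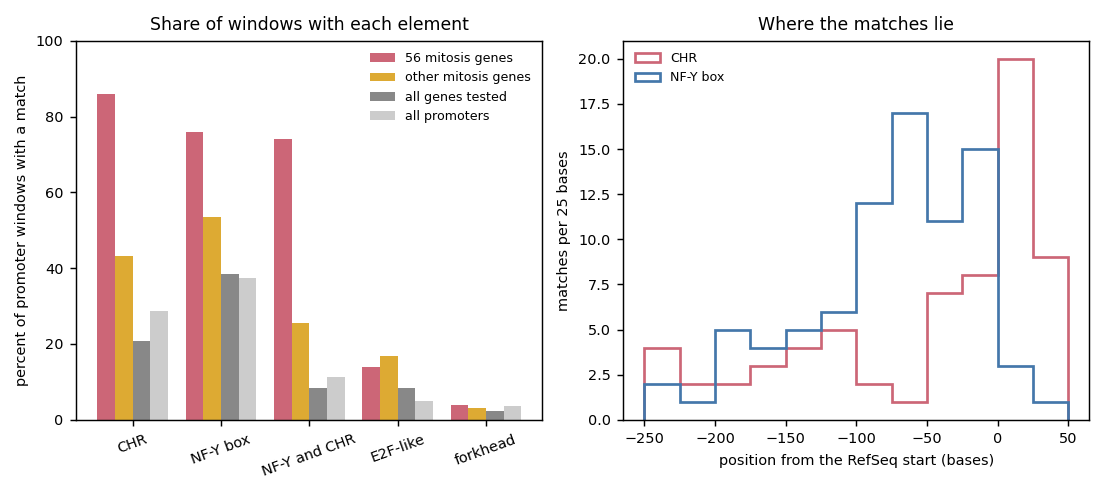
Left, percent of RefSeq promoter windows (250 bases before to 50 after the start) that hold each element, for the 56 mitosis genes, other mitosis genes, all genes tested and all promoters; right, number of CHR and CCAAT (NF-Y box) matches of the mitosis genes per 25 bases against distance from the start. CHR letters stand in 86.0% of the windows of the mitosis genes and 20.8% of those of all genes tested, and they lie closer to the start than CCAAT. A site in overlapping windows of a gene is counted in each.

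Libraries held 31620258 to 39980003 reads recovered from the deposited values, and no mitosis gene had fewer than 283 reads in any library. Nnmt itself was at 7.60, 5.25 and 6.51 FPKM (fragments or reads scaled by transcript length and library size) in the controls and 15.7, 15.0 and 18.3 FPKM in the NNMT cells, 2.53-fold higher (adjusted p = 4.75e-06). All 8 fibroblast markers were present, with a summed level of 7242 to 7687 FPKM in controls and 10417 to 12095 FPKM in NNMT cells, where 6 were higher and 2 (Thy1 and Vim) lower. The 6 epithelial and 5 endothelial markers were all below a mean of 1 FPKM, with Epcam, Krt18, Krt19 and Cldn4 at 0. Among leukocyte, neural and skeletal muscle markers only Cd68, Tubb3 and Acta1 reached 1 FPKM, and the summed neural level went from 3.90 to 4.33 FPKM in controls to 0.0898 to 0.152 FPKM in NNMT cells; the part of these markers in the results was not tested. The groups also differed by whole chromosomes, with a median log2 fold change of -0.70 over X-linked genes, -0.23 on chromosome 4 and 0.29 on chromosome 16. The 7 Y-linked genes tested had a median of 2.84, the largest difference of any chromosome.

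RNA of the mitosis genes was lower in NNMT cells almost without exception. Of the 56 genes, all of which passed the filter of a mean of 1 FPKM, 53 fell, 0 rose and 3 missed the threshold (Bub3, Spc24 and Tpx2). Calls in either direction took in 65.6% and calls of lower 30.6% of the 10882 genes tested (limma on log2(FPKM + 1), Benjamini-Hochberg adjusted p under 0.05). The median log2 fold change of the 56 genes was -0.54, with quartiles of -0.68 and -0.45, against 0.03 over all genes tested with quartiles of -0.22 and 0.26. A fall of at least 0.5 was called in 35 of the 56 genes, where the background was 9.38%, and a fall of at least 1 in 7, where it was 1.76%. The 3 NNMT libraries lay below all 3 controls in 51 genes, against 32.7% of all genes tested, and above them in 0 genes, against 37.2%, and the groups overlapped in Bub3, Spc24, Tpx2, Incenp and Kif20b. Summed over the 56 genes, the controls held 1659.7, 1721 and 1732 FPKM, and the NNMT libraries 1020.1, 1313 and 1132 FPKM in the order unnumbered, replicate 2 and replicate 3. In bulk RNA fewer cells in G2 and mitosis cannot be told apart from less of this RNA in each such cell.

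**Figure D2:**
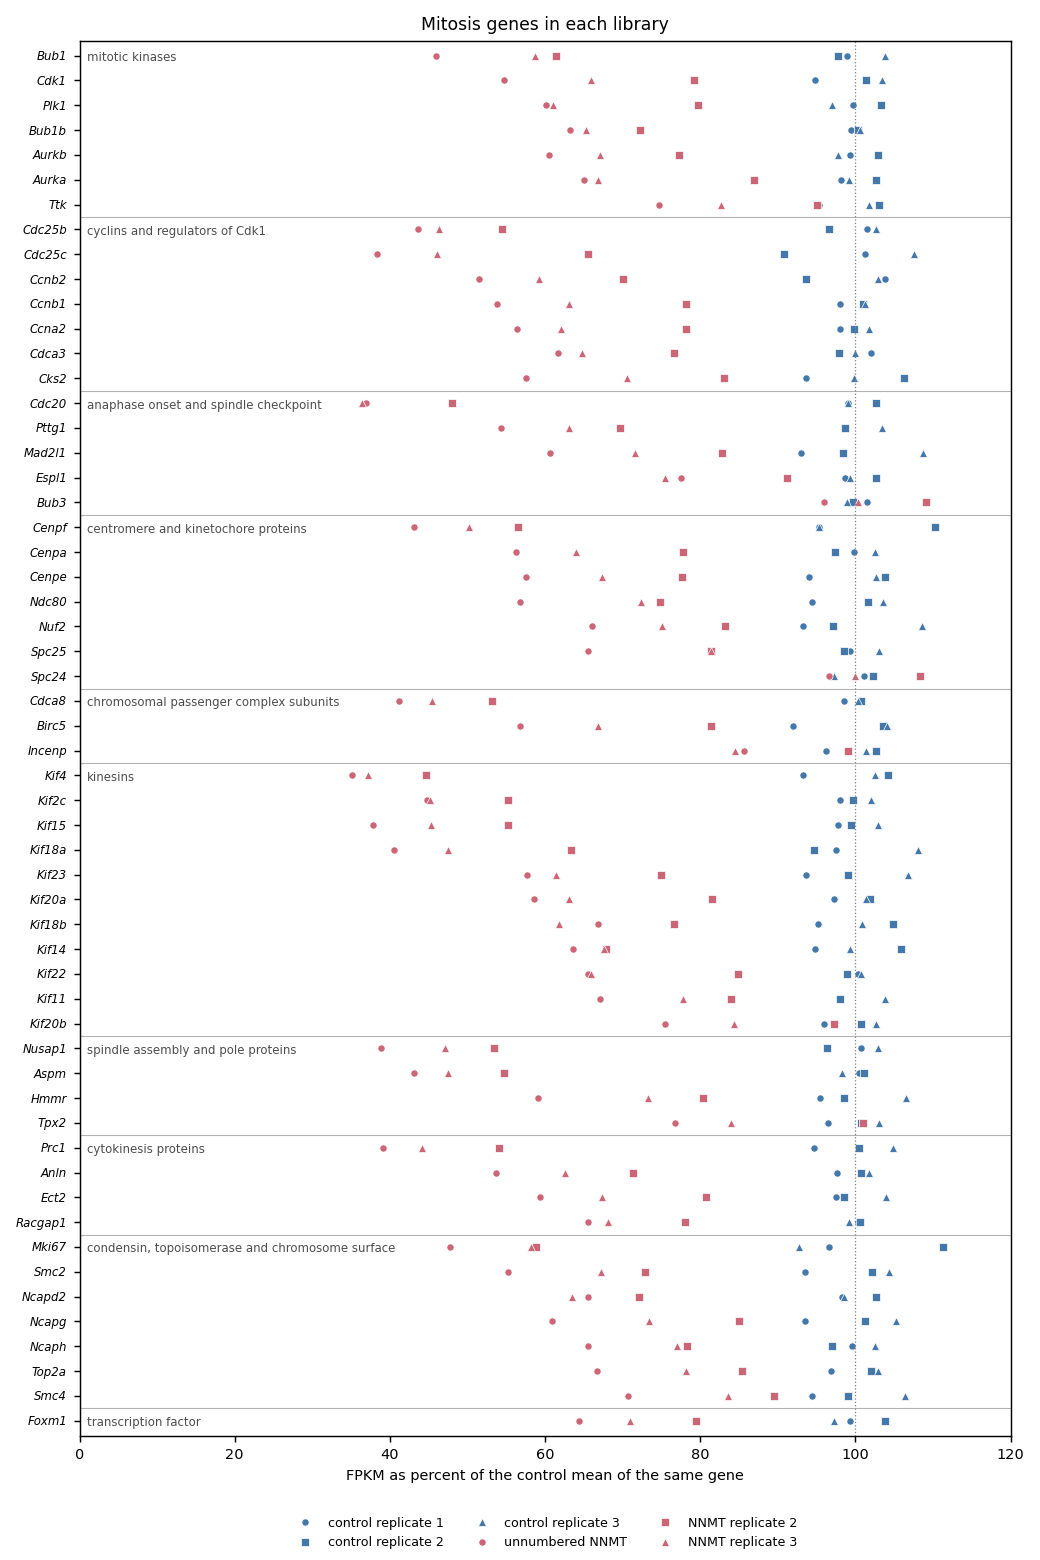
FPKM of each of the 56 mitosis genes in each library, as percent of that gene's control mean (dotted line at 100), grouped by role. The unnumbered NNMT library has a median of 58.8% and NNMT replicate 2 a median of 77.9%, and only Bub3, Spc24, Tpx2, Incenp and Kif20b overlap between the groups.

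The NNMT libraries kept nearly the same order from gene to gene. NNMT replicate 2 was the highest NNMT library in 56 of the 56 genes, where it was so in 37.4% of all genes tested. The NNMT library without a replicate number was the lowest in 51 of them, against 42.3% of all genes tested, and replicate 3 in the remaining 5. As a share of each gene's control mean, the median over the 56 genes was 58.8% in the unnumbered library, 66.0% in replicate 3 and 77.9% in replicate 2, while the control replicates stood at 97.8%, 101% and 102%. The coefficient of variation between libraries had a median of 3.29% in controls and 13.7% in NNMT cells, and was larger in NNMT cells for 55 of the 56 genes. Over all genes tested these medians were 4.33% and 6.05%, and the coefficient was larger in NNMT cells for 7131 of the 10882 genes. With NNMT replicate 2 left out the median log2 fold change of the 56 genes was -0.63, and with the unnumbered library left out it was -0.46. In what follows 6 values of a gene are given as control replicates 1, 2 and 3, then the unnumbered NNMT library, NNMT replicate 2 and NNMT replicate 3, folds are ratios of mean FPKM, and errors of means are SD with n = 3.

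All 7 mitotic kinase genes fell, by 1.19- to 1.81-fold, and their summed level was 217, 225 and 221 FPKM in the controls and 132, 173 and 145 FPKM in the NNMT libraries. Bub1b encodes BubR1, the checkpoint component that holds Cdc20 inactive. It was at 34.1, 34.4 and 34.5 FPKM in the controls and at 21.7, 24.8 and 22.4 FPKM in the NNMT cells, which is 34.3 ± 0.185 against 23.0 ± 1.63 (log2 fold change -0.56, SE 0.0544, limma adjusted p = 9.47e-06). Bub1, the kinase that marks centromeric histone H2A, fell furthest of the kinases, from 18.2, 18.0 and 19.1 FPKM to 8.46, 11.3 and 10.8 FPKM (1.81-fold, adjusted p = 2.05e-05). Even the highest NNMT library stayed well under the lowest control for both genes. Aurkb, the catalytic subunit of the chromosomal passenger complex, went from 40.7, 42.2 and 40.1 FPKM to 24.8, 31.7 and 27.5 FPKM (1.46-fold, adjusted p = 0.00012). Plk1, which acts from mitotic entry to cytokinesis, fell 1.49-fold and Aurka, the spindle pole kinase, 1.37-fold.

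Cdk1, the kinase that drives entry into mitosis, was read at 41.8, 44.7 and 45.6 FPKM in the controls and at 24.1, 34.9 and 29.1 FPKM in the NNMT cells. Its means were 44.1 ± 1.99 and 29.4 ± 5.38 FPKM, a 1.50-fold fall (log2 fold change -0.58, SE 0.104, adjusted p = 0.000648). The NNMT libraries of Cdk1 spanned a wide range but did not reach the controls. Ttk, the checkpoint kinase Mps1, showed the smallest difference of the kinases, at 7.74, 8.37 and 8.26 FPKM against 6.06, 7.72 and 6.71 FPKM (1.19-fold, adjusted p = 0.0237), with NNMT replicate 2 just under the lowest control. The call for Ttk was lost without control replicate 2 (adjusted p = 0.0761), without control replicate 3 (0.0669), without the unnumbered NNMT library (0.0745) and without NNMT replicate 3 (0.0711).

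The 7 cyclins and regulators of Cdk1 all fell, by 1.42- to 2.08-fold. Cdc25b, the phosphatase that starts Cdk1 activation (chromosome 2, 131186949 to 131198497 on GRCm38), was at 26.5, 25.2 and 26.8 FPKM in controls and at 11.4, 14.2 and 12.1 FPKM in NNMT cells. Its mean went from 26.1 ± 0.842 to 12.6 ± 1.47 FPKM (2.08-fold, limma adjusted p = 1.14e-06). Cdc25c, its relative that acts at the entry itself, showed 9.60, 8.61 and 10.2 FPKM against 3.64, 6.21 and 4.37 FPKM, a 2.00-fold fall of the means. The NNMT libraries of Cdc25c varied more, relative to their mean, than those of Cdc25b.

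Among the cyclins, Ccna2 (cyclin A2, active in S phase and G2) was at 44.1, 44.9 and 45.8 FPKM in controls and 25.4, 35.2 and 27.9 FPKM in NNMT cells, a 1.52-fold fall (adjusted p = 0.000263). Ccnb1, which encodes the main mitotic cyclin, stood at 39.9, 41.1 and 41.2 FPKM against 21.9, 31.8 and 25.7 FPKM (1.54-fold, adjusted p = 0.000411). Ccnb2, the other B-type cyclin, was at a lower level, with 10.9, 9.83 and 10.8 FPKM against 5.40, 7.36 and 6.22 FPKM (1.66-fold, adjusted p = 9.81e-05). In each of the 3 cyclins no NNMT library reached a control. Cdca3, which takes part in the degradation of the Cdk1 inhibitor Wee1, fell 1.48-fold from 19.7, 18.9 and 19.3 FPKM to 11.9, 14.8 and 12.5 FPKM (adjusted p = 8.12e-05). Cks2, a small Cdk-binding subunit, fell 1.42-fold (adjusted p = 0.00181). Ccnb1 and Ccna2 have close relatives or overlapping genes in the genome (pseudogenes of Ccnb1, Exosc9 beside Ccna2), as noted with the processing.

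**Figure D3:**
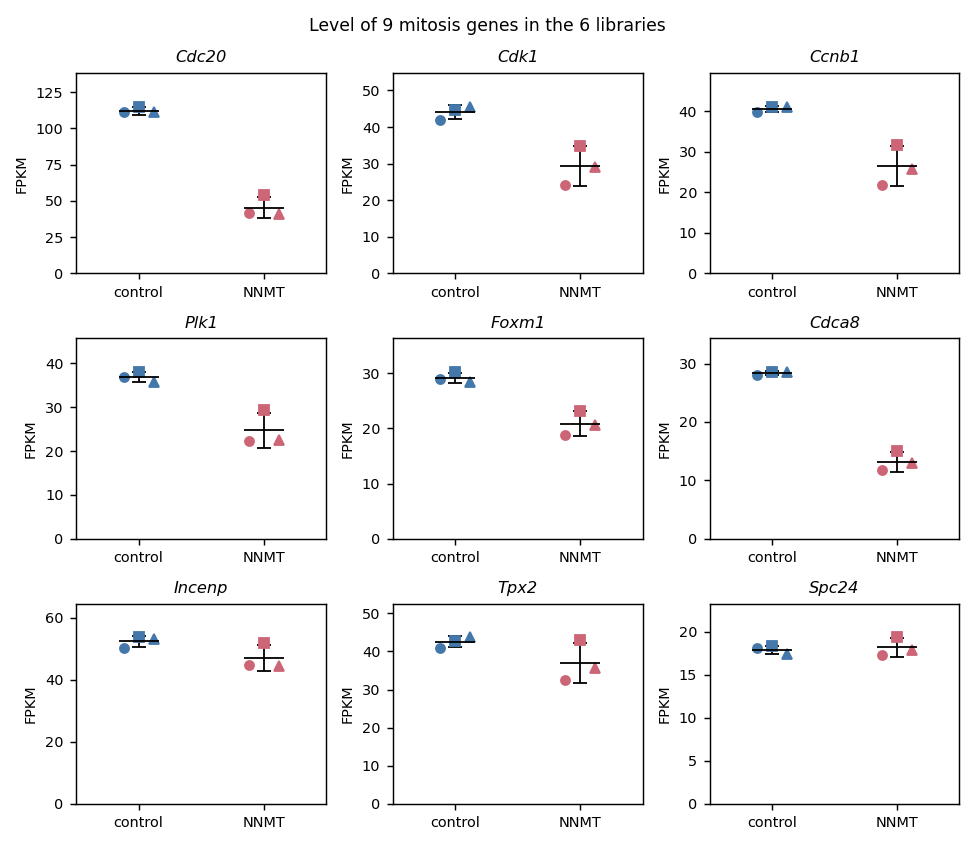
FPKM of 9 mitosis genes in each library; circles are control replicate 1 or the unnumbered NNMT library, squares replicate 2 and triangles replicate 3, with mean and SD as bars (n = 3). Cdc20 and Cdca8 are separated furthest relative to their level, and Incenp, Tpx2 and Spc24 overlap between the groups.

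Of the 5 genes of anaphase onset and the spindle checkpoint, 4 fell. Cdc20, the activator of the anaphase-promoting complex (chromosome 4, 118432901 to 118437352), was the most abundant of the 56 genes in controls and also had the largest log2 fold change. It was read at 111, 115 and 111 FPKM in controls and at 41.3, 53.8 and 40.8 FPKM in NNMT cells, 112 ± 2.62 against 45.3 ± 7.35 FPKM (2.48-fold, log2 fold change -1.30, SE 0.0904, adjusted p = 9.31e-07). Every NNMT library was far below every control. Pttg1, which encodes securin, the inhibitor of separase, was at 14.1, 14.1 and 14.8 FPKM against 7.76, 9.97 and 9.03 FPKM (1.60-fold, adjusted p = 4.29e-05). Mad2l1, the checkpoint protein Mad2, stood at 44.9, 47.5 and 52.5 FPKM against 29.3, 40.0 and 34.6 FPKM (1.39-fold, adjusted p = 0.00162), and Espl1, separase itself, fell 1.23-fold. The falls took in both inhibitors and activators of anaphase. Bub3, which carries Bub1 and BubR1 to kinetochores, did not pass: it was at 62.7, 61.6 and 61.1 FPKM in controls and 59.3, 67.4 and 62.0 FPKM in NNMT cells (log2 fold change 0.02, SE 0.0531, adjusted p = 0.711), with the 2 groups interleaved.

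Centromere and kinetochore genes fell in 6 of 7 cases. Cenpf, a large kinetochore and microtubule protein, was at 10.2, 11.8 and 10.2 FPKM in controls and 4.61, 6.05 and 5.37 FPKM in NNMT cells (2.01-fold, log2 fold change -0.89, SE 0.0872, adjusted p = 9.73e-06). Cenpa, the histone H3 variant that marks the centromere, was at 69.7, 68.0 and 71.6 FPKM against 39.3, 54.3 and 44.7 FPKM (1.51-fold, adjusted p = 0.000264). Cenpe, the kinetochore kinesin that brings chromosomes to the spindle equator, went from 17.3, 19.1 and 18.9 FPKM to 10.6, 14.3 and 12.4 FPKM (1.48-fold, adjusted p = 0.000358). In none of these did the groups overlap.

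The Ndc80 complex, which binds microtubules at the outer kinetochore, has 4 subunits, and all were among the 56 genes. Ndc80 fell 1.47-fold, Nuf2 1.34-fold and Spc25 1.32-fold, with adjusted p-values of 0.000398, 0.0015 and 0.00132. Spc24, the partner of Spc25, was at 18.1, 18.3 and 17.4 FPKM in controls and 17.3, 19.4 and 17.9 FPKM in NNMT cells (log2 fold change 0.02, SE 0.0542, adjusted p = 0.77). Its lowest and its highest library were both NNMT libraries. The difference between Spc24 and the other subunits was not itself tested.

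Besides Aurkb, given above with the kinases, 3 subunits of the chromosomal passenger complex were on the list. All 3 fell, to very different degrees. This complex brings Aurora B to centromeres and later to the midzone. Cdca8, which encodes borealin (chromosome 4, 124918465 to 124939311), was at 28.0, 28.6 and 28.5 FPKM in controls and 11.7, 15.1 and 12.9 FPKM in NNMT cells (28.4 ± 0.29 against 13.2 ± 1.72 FPKM, 2.14-fold, log2 fold change -1.05, SE 0.0757, adjusted p = 1.17e-06). Birc5, survivin, stood at 18.3, 20.6 and 20.7 FPKM against 11.3, 16.2 and 13.3 FPKM (1.46-fold, adjusted p = 0.00128). Incenp, the scaffold, was at 50.4, 53.8 and 53.1 FPKM against 44.9, 51.9 and 44.3 FPKM (1.11-fold, adjusted p = 0.0487), and NNMT replicate 2 lay within the range of the controls. The Incenp call was lost when any library other than NNMT replicate 2 was left out: the adjusted p was 0.0501, 0.141 and 0.123 without control replicates 1, 2 and 3, 0.121 without the unnumbered NNMT library and 0.177 without NNMT replicate 3. Without NNMT replicate 2 it was 0.00192.

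The 11 kinesin genes all fell, by 1.16- to 2.57-fold, from summed levels of 176, 182 and 186 FPKM to 105, 134 and 111 FPKM. Kif4, the chromokinesin that works with Prc1 at the central spindle (X chromosome, 100625737 to 100727214), showed the largest fold of the 56 genes, at 11.0, 12.3 and 12.1 FPKM in controls and 4.14, 5.27 and 4.39 FPKM in NNMT cells (11.8 ± 0.703 against 4.60 ± 0.594 FPKM, 2.57-fold, log2 fold change -1.20, SE 0.0784, adjusted p = 6.26e-07). Kif4 lies on the chromosome whose genes had a median of -0.70, and less this median its log2 fold change was -0.50. Kif2c, the microtubule-depolymerising kinesin MCAK, went from 29.1, 29.6 and 30.3 FPKM to 13.3, 16.4 and 13.4 FPKM (2.07-fold, adjusted p = 1.27e-06). Kif15, a motor of the bipolar spindle, went from 7.80, 7.94 and 8.21 FPKM to 3.02, 4.41 and 3.61 FPKM (2.17-fold, adjusted p = 1.04e-05). For all 3 the highest NNMT library lay far below the lowest control. Kif18a, which dampens chromosome movement, fell 1.99-fold, and Kif11, the motor Eg5 that pushes spindle poles apart, 1.31-fold. Falls of the cytokinesis motors Kif23 and Kif20a were 1.54- and 1.48-fold, and those of Kif14, Kif18b and Kif22 were 1.50-, 1.46- and 1.39-fold.

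Kif20b, a motor of late cytokinesis, had the smallest difference of the kinesins. It was at 14.1, 14.8 and 15.1 FPKM in controls and at 11.1, 14.3 and 12.4 FPKM in NNMT cells (1.16-fold, adjusted p = 0.0383), with NNMT replicate 2 above the lowest control. Its call was lost without control replicate 2 (adjusted p = 0.0901), control replicate 3 (0.112), the unnumbered NNMT library (0.117) or NNMT replicate 3 (0.1).

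Among 4 genes of spindle assembly and the poles, 3 fell. Nusap1, which bundles spindle microtubules, was at 13.7, 13.1 and 14.0 FPKM in controls and 5.28, 7.26 and 6.40 FPKM in NNMT cells (2.16-fold, log2 fold change -1.01, SE 0.0871, adjusted p = 4.17e-06). Aspm, which focuses spindle poles (chromosome 1, 139454772 to 139494091), was at 7.78, 7.83 and 7.61 FPKM against 3.34, 4.23 and 3.68 FPKM (2.07-fold, adjusted p = 2.62e-06). Hmmr, a spindle microtubule protein, was at 18.9, 19.5 and 21.1 FPKM against 11.7, 15.9 and 14.5 FPKM (1.41-fold, adjusted p = 0.00115). No NNMT library of these genes reached the controls. Tpx2, the activator of Aurora A, stood at 41.0, 42.8 and 43.8 FPKM in controls and 32.6, 42.9 and 35.7 FPKM in NNMT cells, and missed the threshold (1.15-fold, log2 fold change -0.20, SE 0.0839, adjusted p = 0.0535). Here NNMT replicate 2 fell among the controls. Without it the log2 fold change of Tpx2 was -0.31 (adjusted p = 0.000515).

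The 4 cytokinesis genes fell by 1.42- to 2.19-fold. Prc1, which cross-links the antiparallel microtubules of the midzone (chromosome 7, 80294450 to 80316259), was at 43.1, 45.7 and 47.7 FPKM in controls and 17.8, 24.6 and 20.1 FPKM in NNMT cells (45.5 ± 2.30 against 20.8 ± 3.46 FPKM, 2.19-fold, log2 fold change -1.10, SE 0.0952, adjusted p = 4.11e-06). Anln, which encodes the contractile ring protein anillin, was at 40.2, 41.5 and 41.9 FPKM against 22.1, 29.4 and 25.8 FPKM (1.60-fold, adjusted p = 6.01e-05). Racgap1, the GTPase-activating subunit of centralspindlin, was at 49.8, 49.9 and 49.2 FPKM against 32.5, 38.7 and 33.8 FPKM (1.42-fold, adjusted p = 5.54e-05). The groups were apart in all of these. Ect2, the exchange factor that activates RhoA at the equator, fell 1.45-fold.

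Genes of chromosome structure fell in 7 of 7 cases, by 1.23- to 1.82-fold. Ncapd2, a condensin I subunit, was at 33.9, 35.4 and 34.0 FPKM in controls and 22.6, 24.9 and 21.9 FPKM in NNMT cells (1.49-fold, log2 fold change -0.56, SE 0.055, adjusted p = 1.06e-05). Mki67, whose protein Ki-67 coats mitotic chromosomes and serves as a marker of cycling cells, was at 30.7, 35.4 and 29.5 FPKM against 15.2, 18.7 and 18.5 FPKM (1.82-fold, adjusted p = 1.56e-05). Smc2, the condensin ATPase, was at 21.7, 23.7 and 24.2 FPKM against 12.8, 16.9 and 15.6 FPKM (1.54-fold, adjusted p = 0.000163). The lowest control stood above the highest NNMT library each time. Top2a, the topoisomerase that untangles sister chromatids, was the second most abundant of the 56 genes in controls and fell 1.31-fold, from 98.8, 104 and 105 FPKM to 68.0, 87.1 and 79.7 FPKM (adjusted p = 0.00133). The other condensin subunits Ncapg, Ncaph and Smc4 fell 1.37-, 1.36- and 1.23-fold.

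Foxm1, the forkhead factor that activates many G2 and mitosis genes, was at 29.0, 30.3 and 28.4 FPKM in controls and 18.8, 23.2 and 20.7 FPKM in NNMT cells. Its mean fell 1.40-fold, 29.2 ± 0.947 FPKM in controls against 20.9 ± 2.24 in NNMT cells (-0.47 on the log2 scale, SE 0.0698, adjusted p = 0.00018). All NNMT libraries were under the controls, in the same order of libraries as most of the other genes.

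**Figure D4:**
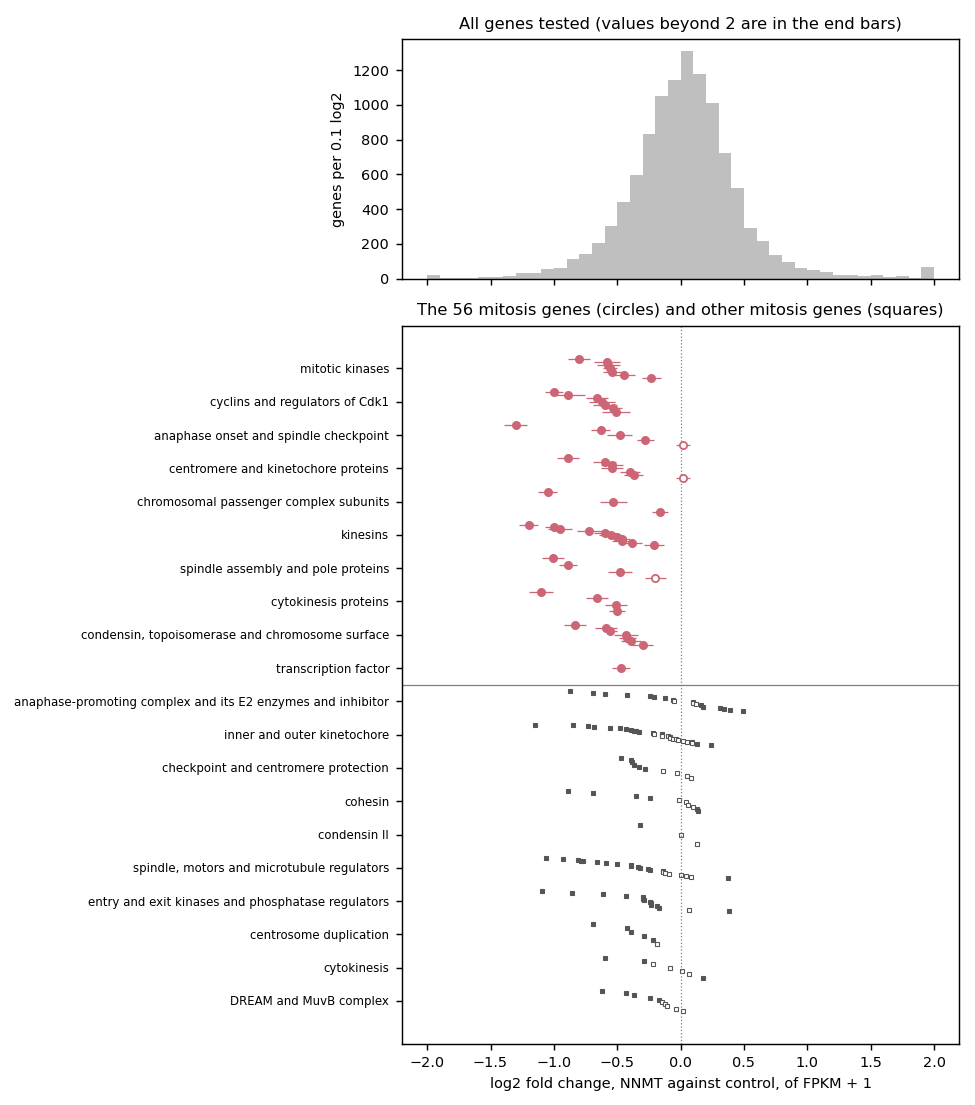
Top, number of all genes tested per 0.1 of log2 fold change (NNMT against control, of FPKM + 1); bottom, the 56 mitosis genes by role with SE (circles) and 129 other mitosis genes (squares), filled where the adjusted p is under 0.05. The 56 genes have a median of -0.54, the other mitosis genes -0.21 and all genes tested 0.03.

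A further 130 mitosis genes were taken by function, to see how far the pattern reached. They were chosen with earlier results of these data known, so their shares are a description and not independent support. Haus5 was below the filter. Of the 129 tested, 69 fell (53.5%, against 30.6% of all genes tested) and 13 rose (against 35.0% of all genes tested). Their median log2 fold change was -0.21. The share that fell was highest among entry and exit kinases and phosphatase regulators (12 of 14 fell, 1 rose, median -0.26), centrosome duplication genes (5 of 6 fell, 0 rose, median -0.34), spindle and motor genes (14 of 23 fell, 1 rose, median -0.32) and checkpoint and centromere protection genes (6 of 10 fell, 0 rose, median -0.31). Other inner and outer kinetochore genes were more mixed, with 13 of 28 falling and 2 rising and a median of -0.15. Core subunits, E2 enzymes and the inhibitor of the anaphase-promoting complex went both ways, with 7 of 18 falling, 6 rising and a median of 0.02. Cohesin genes had a median of 0.01 (4 of 10 fell, 2 rose), and of the 3 condensin II genes 1 fell. The smallest share of falls, 28.6% against 30.6% over all genes tested, belonged to 7 further cytokinesis genes (2 lower, 1 higher, median -0.08). Genes of the DREAM and MuvB complexes, which repress and then activate mitotic genes, fell in 5 of 10 cases with a median of -0.16.

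Among these genes the falls with the largest log2 fold change were Ccnf (cyclin F, 26.0 ± 0.294 against 11.7 ± 1.94 FPKM, 2.21-fold), Stmn1 (stathmin, a microtubule-destabilising protein, 115 ± 4.12 against 60.2 ± 5.12 FPKM) and 3 X-linked genes. These were Cenpi of the inner kinetochore (2.64-fold), Haus7 of the augmin complex (2.20-fold) and the cohesin ATPase Smc1a (1.88-fold). Less the X-linked median of -0.70, their log2 fold changes were -0.45, -0.36 and -0.19. Stag2, another X-linked cohesin gene that fell, stood at 0.01 on this scale. Ube2s, the E2 that extends ubiquitin chains for the anaphase-promoting complex, fell 1.83-fold, the Cdk phosphatase Cdkn3 1.98-fold and the kinetochore gene Cenpw 1.93-fold. Rises were smaller. Anapc13, a small subunit of the anaphase-promoting complex, rose 1.46-fold from 8.49 ± 0.241 to 12.4 ± 1.10 FPKM. In the same complex Anapc10, Cdc16, Anapc7, Cdc23 and Cdc26 rose 1.41-, 1.27-, 1.26-, 1.14- and 1.13-fold, while Anapc2, Anapc1 and Anapc5 fell 1.18-, 1.16- and 1.08-fold. Kif3b, a transport kinesin, rose 1.33-fold, Ensa, an inhibitor of the phosphatase PP2A-B55, 1.31-fold, the kinetochore gene Mis12 1.19-fold and the abscission gene Chmp4b 1.13-fold.

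Position in the genome was compared because whole chromosomes differed between the groups. Of the 56 genes 5 lie on chromosomes X and 4 (Kif4 on X, and Cdc20, Cdca8, Kif2c and Smc2 on 4), none on Y or 16, and 51 elsewhere. Within their own chromosomes 55 of the 56 genes lay below the median of all tested genes, by a median of 0.58 on the log2 scale. With chromosomes X, Y, 4 and 16 left out of the fit, 47 of the 51 remaining genes fell (median -0.53 on the log2 scale). Kif4, Cdc20, Cdca8 and Kif2c, 4 of the 7 genes lower by at least 1, lie on X and 4. Less the median of their own chromosome, the log2 fold changes were -0.50 for Kif4, -1.07 for Cdc20, -0.82 for Cdca8 and -0.77 for Kif2c. On this scale only Cdc20 of these 4 stayed lower by at least 1. What the chromosome-wide differences add to these 4 values was not tested.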

How the data were processed

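The deposited table names no unit for its 6 columns of library values, 1 of which (NNMT) carries no replicate number. The values deposited by the authors were read as FPKM, scaled by them to transcript length and library size, because each gene moves in whole multiples of a step that follows its length. Of 20528 genes above 0, 71.1% gave whole reads at the longest GENCODE M21 transcript and the others at another length (tolerance 0.01 read). The recovered reads summed to 99.85% to 99.86% of the implied totals, 33991803, 38876362 and 31620258 in control replicates 1, 2 and 3 and 39980003, 35283051 and 36282482 in the unnumbered NNMT library, NNMT replicate 2 and NNMT replicate 3. Per the submitters' processing notes the tools were CASAVA and STAR 2.5 and the build mm10. The labels do not say how reads were counted, with what strand and multi-mapping rules, or how RNA was picked for the libraries. Pairs of libraries of a group differed by more than counting error (chi-square per degree of freedom 5.701 to 20.197), so none was treated as a copy.

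The test was limma 3.58.1 (R 4.3.3) on log2(FPKM + 1), for genes whose mean of all 6 libraries reached 1 FPKM (mean-variance trend, robust moderation, two-sided, Benjamini-Hochberg over all 10882 genes, threshold 0.05), and fold changes on this scale understate the change of low genes. The script was tested on simulated data. Gene coordinates are from GENCODE M21 on GRCm38, with 34490 of 35275 identifiers paired, and promoter sequences from RefSeq (GRCm38.p6). Alternatives were limma-voom on the recovered reads, other scalings, filters and pseudocounts, a fold threshold, left-out libraries and chromosomes, and a replicate block.

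The 56 genes, the 130 other mitosis genes and their roles were chosen with earlier results of these data known. In each role, values per library are given for the 3 genes with the smallest adjusted p and for those that missed the threshold, and always for Cdk1, Ccna2, Ccnb1, Ccnb2 and Foxm1; of the other mitosis genes the 8 largest falls and 8 largest rises with at least 5 FPKM are named. Further genes were named after their values were seen. Of the 56 genes, 11 overlap another expressed gene on the opposite strand (Ccna2, Cdc25b, Cdc20, Bub3, Cdca8, Kif4, Kif18a, Kif20a, Nusap1, Prc1 and Ncapg), and 4 have annotated pseudogenes (Ccnb1, Ccnb2, Kif4 and Kif22); their values are less certain.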

Additional observations from a re-analysis of the deposited data

How the results depend on the processing

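Of the 56 genes, 50 kept their call in each of the 18 alternative fits that tested them (54 genes were tested at a mean of at least 5 FPKM, 51 without chromosomes X, Y, 4 and 16) and 6 (Bub3, Incenp, Kif20b, Spc24, Tpx2, Ttk) changed their call or sign. With single libraries left out 50 to 54 genes were called lower, with a median log2 fold change of -0.63 to -0.46. Incenp, Kif20b and Ttk also lost their call when low values were not filtered (adjusted p 0.112, 0.106 and 0.0672), and Incenp without a trend (0.068) or without chromosomes X, Y, 4 and 16 (0.0504). Tpx2 was called lower with limma-voom (0.0213), medians of ratios (0.0278) and quantile normalization (0.0427). Bub3 and Spc24 changed sign without being called: Bub3 was -0.00 with limma-voom and with medians of ratios and ran from -0.03 to 0.03 with single libraries left out, and Spc24 was -0.01 under both scalings, -0.00 without control replicate 3 and likewise -0.03 to 0.03 over left-out libraries. The cause was not tested. A further threshold of 0.5 on the log2 fold change, either way, left 35 of the 56 genes, 24 other mitosis genes called lower and 0 higher, and 1021 of all genes lower and 1049 higher, by construction of the threshold. At a pseudocount of 10 the median of the other mitosis genes was -0.10. Main calls over all genes were 3334 lower and 3806 higher, against 3612 and 3558 with limma-voom.

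A replicate block was fitted for replicates 2 and 3, since the remaining NNMT column has no number; the labels name an NNMT replicate 1 that no other column matches, but the column was not assigned to it. It called 54 of the 56 genes lower and 0 higher (median -0.48), against 50 without the block on the same 4 libraries, an alternative added after the data were seen. Tpx2 was called with the block (adjusted p 0.0316) and not without it (0.158). Deviations from the group means correlated at 0.212 and 0.110 for same-numbered libraries, at 0.314 for control replicate 1 with the unnumbered NNMT library, and at -0.381 to 0.212 for the other pairs. Whether the numbers pair the samples was not settled. The 3 libraries a group and the spread of the NNMT libraries limit the precision.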

Other observations

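Partner genes were set side by side as ratios of their FPKM, which is per length, within each library; the pairs were chosen after their values were seen and no test was made. Ccnb1 to Cdk1, the cyclin and its kinase, held nearly the same ratio in both groups, at 0.954, 0.918 and 0.903 in controls and 0.910, 0.914 and 0.880 in the unnumbered NNMT library, NNMT replicate 2 and NNMT replicate 3. The ratio of Ccna2 to Cdk1 (1.02 ± 0.0296 against 1.01 ± 0.0482, SD, n = 3) and that of the centralspindlin partners Kif23 and Racgap1 (0.442 ± 0.0319 against 0.406 ± 0.0194) also overlapped between the groups.

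Other partners did not keep their ratio. Bub1b to Bub3, both of the checkpoint complex, stood at 0.544, 0.558 and 0.564 in controls and at 0.366, 0.368 and 0.362 in NNMT cells. Bub1 to Bub3 went from 0.298 ± 0.0121 to 0.162 ± 0.0169, and Cdca8 to Incenp, borealin to its scaffold, from 0.541 ± 0.0133 to 0.281 ± 0.0174. Ndc80 to Spc24 went from 1.39 ± 0.0937 to 0.931 ± 0.0985 and Cdc20 to Mad2l1, the activator and its checkpoint inhibitor, from 2.33 ± 0.195 to 1.31 ± 0.12. The groups did not overlap in any of these 5 ratios. Bub3 and Spc24 were not called, so ratios over them mostly repeat the fall of the other gene. Prc1 to Kif4 and Espl1 to Pttg1 went up, from 3.86 ± 0.136 to 4.51 ± 0.198 and from 1.03 ± 0.0406 to 1.35 ± 0.124. Kif4 is X-linked, and X-linked genes had a median log2 fold change of -0.70. Less the median of its own chromosome, Kif4 stood at -0.50 and Prc1 at -1.08, so Prc1 fell further on that scale. The part of the X-linked difference in the Prc1 to Kif4 ratio was not tested. Single genes did not overlap in 32.7% (lower) and 37.2% (higher) of all genes tested. The share over ratios of other gene pairs was not computed, so these ratios have no background of their own.

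Of the 56 genes, the highest control library was replicate 3 in 32 and replicate 2 in 21, against 36.6% and 24.7% of all genes tested. The lowest was replicate 1 in 37, against 31.3% of all genes tested. The range of the controls was much narrower than that of the NNMT cells.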
